A study of Arabidopsis thaliana with 24 samples.

Results

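UGT76B1 (AT3G11340) and IAGLU (AT4G15550) are Arabidopsis thaliana genes of UDP-glycosyltransferases, and the probe table assigns a probe to each of them. They were chosen with earlier results of these data known. They are 2 of the 181 genes named among the 576 probes of the array. The series asked how mutants of MPK11, a MAP kinase, respond to flg22, an immunity-eliciting peptide from flagellin. Its 24 arrays fell into 8 groups of 3: mpk11 with flg22, wild type with flg22, mpk11 with mock and wild type with mock, each at 30 min and at 3 h. The mpk11 seedlings are of 1 line, SALK049352 (a T-DNA insertion collection), in the Col accession, wild type is Col itself, flg22 was given at 1 µM and mock was water, and RNA came from leaves of seedlings kept in liquid medium. Every group carries set numbers 1 to 3.

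UDP-glycosyltransferases attach a sugar from a UDP-sugar to small acceptor molecules, and in plants they are known for turning active hormones into conjugates that are stored, moved or kept inactive. UGT76B1 glucosylates isoleucic acid, salicylic acid and N-hydroxypipecolic acid, which are signals of immunity in Arabidopsis. IAGLU, also called UGT75D1, carries the annotated activity of an indole-3-acetate glucosyltransferase, which would act on the auxin indole-3-acetic acid. Transcript levels on the array say nothing of enzyme activity or of hormone amounts.

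All values are those deposited, read here as log2 because no source used here names the base, and differences are log2 differences from 1 limma model over all arrays, adjusted by Benjamini-Hochberg over all probes with a threshold of 0.05. Levels of the 2 genes are not set against each other, because they come from different probes. Array medians lay between 4.02 and 4.17 on the 12 flg22 arrays and between 3.34 and 3.76 on the 12 mock arrays, so they moved with the treatment. Whether the scaling of arrays did so was not tested. Over both genotypes the median probe differed between flg22 and mock by 0.06 at 30 min and 0.17 at 3 h. After median centring it differed by -0.43 and -0.41. The 3 other scalings were median centring, quantile normalization and centring on 12 reference genes, the last chosen after seeing the data. Changes under them are given beside the results or in the closing section. Neither MPK11 nor any of the 9 leaf and 6 root markers listed for this work was among the named probes, so genotype and tissue labels were not checked here. In leaf RNA, a change in the amount of a transcript per cell and a change in the share of cells that hold it cannot be told apart.

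At 3 h both genes were higher with flg22 in both genotypes. UGT76B1 had values of 3.65, 4.09 and 4.09 in mpk11 with flg22 (sets 1 to 3), against 2.99, 3.15 and 3.01 in mpk11 with mock. In wild type it had 3.69, 4.02 and 3.89 with flg22, against 2.81, 2.77 and 2.87 with mock. Every flg22 array lay above every mock array of its genotype, and set 1 was the lowest flg22 array in each genotype. The rise of UGT76B1 was 0.89 in mpk11 (SE 0.16; 95% interval 0.55 to 1.23; limma adjusted p = 8.27e-05) and 1.05 in wild type (SE 0.16; 0.71 to 1.39; limma adjusted p = 1.12e-05).

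IAGLU, the gene annotated for auxin conjugation, was also higher at this time. Its values were 3.82, 4.12 and 4.07 in mpk11 with flg22, against 2.91, 2.87 and 2.79 in mpk11 with mock. In wild type they were 4.06, 3.91 and 3.93 with flg22, against 2.83, 2.80 and 2.93 with mock. The groups did not overlap, and the lowest flg22 array (3.82, mpk11 set 1) was still clear of the highest mock array (2.93, wild-type set 3). The rise was 1.14 in mpk11 (SE 0.14; 95% interval 0.85 to 1.43; limma adjusted p = 3.30e-07) and 1.11 in wild type (SE 0.14; 0.82 to 1.40; limma adjusted p = 4.98e-07).

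Over both genotypes together, UGT76B1 rose by 0.97 at 3 h (SE 0.12; limma adjusted p = 1.56e-07) and IAGLU by 1.13 (SE 0.10; limma adjusted p = 9.48e-10). Both being called is read against a background in which 39.2% of the 576 probes were higher and 10.4% lower in this comparison, and 34.4% were higher in mpk11 alone and 31.9% in wild type alone. By size of the pooled change they ranked 126 (UGT76B1) and 113 (IAGLU) of 576 from the highest, beside a median over all probes of 0.17. Centring each array on its median lowered the pooled rises to 0.39 for UGT76B1 (limma adjusted p = 0.00910) and 0.55 for IAGLU (limma adjusted p = 6.12e-05), and shifted the probes of this comparison by a median of -0.58, turning 226 higher and 60 lower probes into 133 and 326. The same centring turned 198 higher and 37 lower probes into 122 and 281 in mpk11 alone, and 184 and 37 into 123 and 256 in wild type alone. In mpk11 alone the call of UGT76B1 ended under this centring (0.27, limma adjusted p = 0.196) and under quantile normalization (0.23, limma adjusted p = 0.312).

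**Figure D1:**
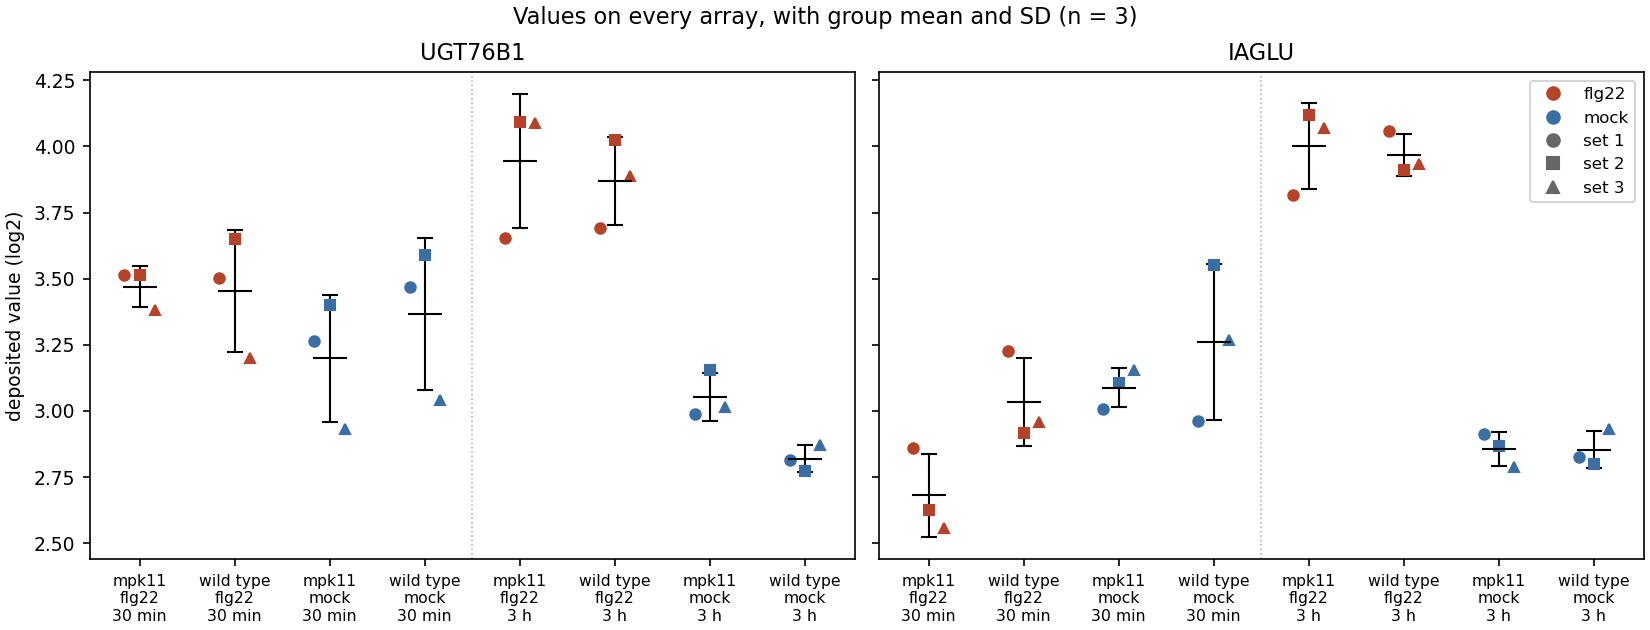
Deposited log2 value of UGT76B1 (left) and IAGLU (right) on each of the 24 arrays, by genotype, treatment and time; symbols mark the set, colours the treatment, and bars the group mean and SD (n = 3). At 3 h every flg22 array lies above every mock array for both genes, while at 30 min IAGLU lies lowest in mpk11 with flg22, between 2.56 and 2.86.

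At 30 min the 2 genes did not behave as they did at 3 h. IAGLU was lower with flg22 in mpk11, where its values were 2.86, 2.62 and 2.56 with flg22, against 3.01, 3.10 and 3.15 with mock. In wild type the values were 3.23, 2.92 and 2.96 with flg22, against 2.96, 3.55 and 3.27 with mock. The groups were apart in mpk11 and overlapped in wild type, where set 1 was the highest flg22 array and also the lowest mock array.

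IAGLU fell by 0.41 in mpk11 (SE 0.14; 95% interval -0.70 to -0.12; limma adjusted p = 0.0374), a comparison in which 1.56% of probes were lower. Its difference in wild type was -0.23 (SE 0.14; -0.52 to 0.06; limma adjusted p = 0.391), where 0.174% of probes were lower. Over both genotypes it fell by 0.32 (SE 0.10; limma adjusted p = 0.0181), where 3.47% of probes were lower, and it ranked 551 of 576 from the highest. Median centring, which shifted the probes of the pooled comparison by a median of -0.48, turned 134 higher and 20 lower probes into 96 and 373, in mpk11 alone 118 and 9 into 87 and 266, and in wild type alone 117 and 1 into 87 and 253. The pooled decrease of IAGLU was larger after median centring (-0.80) and quantile normalization (-0.60), and it did not pass without set 2 (-0.20, limma adjusted p = 0.285), without set 3 (-0.25, limma adjusted p = 0.365), without array 2 of wild-type mock (-0.24, limma adjusted p = 0.0735) or without array 3 of mpk11 with flg22 (-0.29, limma adjusted p = 0.0536). Without set 1, which holds the opposite wild-type pair, the wild-type difference was -0.47 and passed (limma adjusted p = 0.0353). With all sets, the wild-type difference also passed after median centring (-0.70, limma adjusted p = 6.83e-04). It did so too after quantile normalization (-0.48, limma adjusted p = 0.0199), where 157 probes were lower. In mpk11 alone the call ended without set 2 or 3 or after omission of either treatment's array 2 or 3 (limma adjusted p from 0.0810 to 0.472). That call also ended after centring on reference genes (-0.40) and with the compared groups only (-0.41).

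UGT76B1 did not pass at 30 min in either genotype. It had 3.51, 3.51 and 3.38 in mpk11 with flg22, against 3.27, 3.40 and 2.93 in mpk11 with mock. In wild type the values were 3.50, 3.65 and 3.20 with flg22, against 3.47, 3.59 and 3.04 with mock. Within each set the flg22 array was the higher one in 6 of 6 pairs, by 0.03 to 0.45, and set 3 was the lowest array in all 4 groups. The pooled difference was 0.18 (SE 0.12; 95% interval -0.06 to 0.42; limma adjusted p = 0.363), with 23.3% of probes higher in this comparison. Its sign depended on the scaling: after median centring it was -0.31 and passed (limma adjusted p = 0.0370), and after quantile normalization it was -0.23 without passing (limma adjusted p = 0.122). The median over all probes was -0.43 after median centring and -0.28 after quantile normalization.

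**Figure D2:**
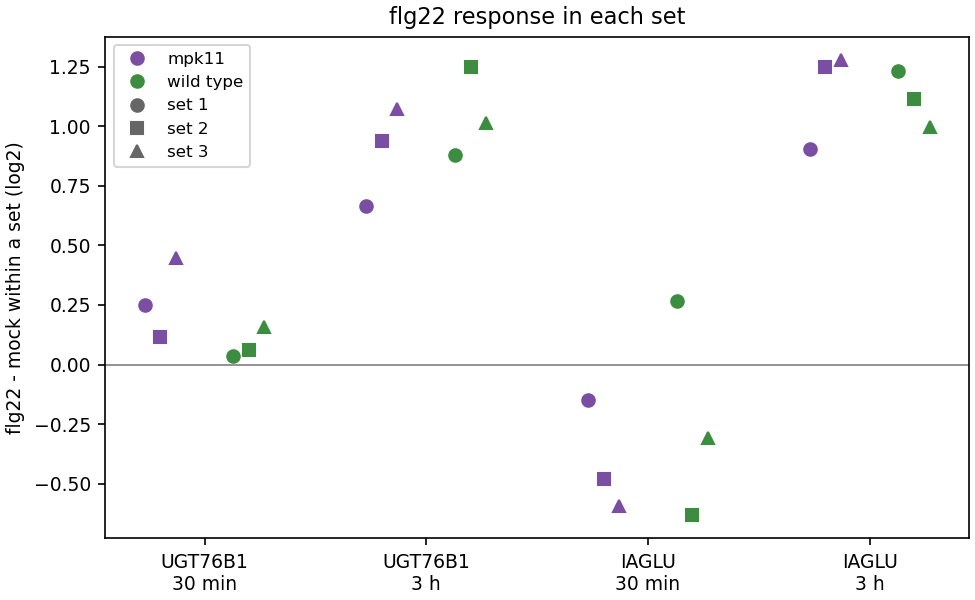
Difference between the flg22 and the mock array of the same set (deposited log2 values) for each gene and time, with mpk11 and wild type side by side and symbols for the set. All 6 pairs lie above 0 for both genes at 3 h, and at 30 min 6 of 6 lie above 0 for UGT76B1 (its pooled value is -0.31 after median centring and 0.20 after centring on reference genes) while 5 of 6 lie below 0 for IAGLU.

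The unequal early changes were compared directly by taking the difference of the 2 probes within each array, in which any scaling that adds the same amount to a whole array cancels. At 30 min the response of UGT76B1 exceeded that of IAGLU by 0.49 (exact two-sided permutation test within genotype, p = 0.02, adjusted over the 2 times p = 0.04, 6 flg22 and 6 mock arrays). It did so in 5 of 6 same-set pairs, the exception being wild-type set 1, with pair values from -0.23 to 1.04. When sets entered as a replicate block, the same difference did not pass (exact sign-flip test over 6 pairs, p = 0.0625, adjusted p = 0.125), a test whose smallest p is 0.03125 and which, with the 3 h result beside it, could not have reached 0.05 after adjustment. It did not pass either after quantile normalization (0.37, exact permutation adjusted p = 0.12) or with single arrays left out in 9 of 12 cases. At 3 h the responses differed by -0.16, with IAGLU responding more in 4 of 6 pairs (exact permutation p = 0.1, adjusted p = 0.1). Leaving out wild-type flg22 array 2 at 3 h made that difference -0.21 and it then passed (exact permutation adjusted p = 0.02).

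The response of each gene therefore differed between the times, and this difference was tested in the model. For UGT76B1 the pooled response was 0.97 at 3 h against 0.18 at 30 min, a difference of 0.79 (SE 0.16; 95% interval 0.45 to 1.13; limma adjusted p = 3.87e-04). For IAGLU it was 1.13 at 3 h against -0.32 at 30 min, a difference of 1.45 (SE 0.14; 1.16 to 1.74; limma adjusted p = 1.34e-08). Both are called in a comparison where 21.5% of probes had a larger response at 3 h, and IAGLU ranked 41 and UGT76B1 79 of 576. These calls passed under all 3 other scalings, with values from 0.65 to 0.83 for UGT76B1 and from 1.21 to 1.49 for IAGLU, and without any single array or set. The highest of these values came from the reference genes chosen after seeing the data. That centring moved the probes of this comparison by a median of 0.04.

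The change between the times has a part in flg22 and a part in mock, given here gene by gene, and a difference between the genes in either part was not tested. In flg22-treated seedlings UGT76B1 averaged 3.91 at 3 h and 3.46 at 30 min, a rise of 0.45 (SE 0.12; limma adjusted p = 0.00226), and IAGLU averaged 3.98 at 3 h and 2.86 at 30 min, a rise of 1.13 (SE 0.10; limma adjusted p = 1.14e-09). Of all probes 26.2% rose in that comparison. In mock, UGT76B1 averaged 2.94 at 3 h and 3.28 at 30 min, a fall of 0.35 on the log2 scale (a difference of -0.35, SE 0.12, limma adjusted p = 0.0364). IAGLU in mock averaged 2.86 at 3 h and 3.17 at 30 min (a difference of -0.32, SE 0.10, limma adjusted p = 0.0226), and 16.5% of probes were lower there.

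The lower mock level at 3 h was the less stable part of this. After median centring the mock differences were -0.20 for UGT76B1 and -0.17 for IAGLU, neither passing (limma adjusted p = 0.320 and 0.278), and the 23 higher and 95 lower probes became 40 and 57. Likewise, the call of UGT76B1 was lost with 11 of 15 omissions of an array or set and that of IAGLU with 5 of 15. The rise of UGT76B1 in flg22 lost its call in 1 of 15 omissions, without set 3 (0.32, limma adjusted p = 0.0695), and that of IAGLU in 0 of 15.

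Placed in order of their deposited means, the 8 groups gave a different sequence for each gene. For UGT76B1 the order from the highest was mpk11 with flg22 at 3 h (3.94 ± 0.25, SD, n = 3), wild type with flg22 at 3 h (3.87 ± 0.17), mpk11 and wild type with flg22 at 30 min (3.47 ± 0.08 and 3.45 ± 0.23), wild type and mpk11 with mock at 30 min (3.37 ± 0.29 and 3.20 ± 0.24), mpk11 with mock at 3 h (3.05 ± 0.09) and wild type with mock at 3 h (2.82 ± 0.05). Neighbours in this order differed by more than the larger of their SDs in 2 places, below the flg22 groups of 3 h (a gap of 0.40) and between the mock groups of 3 h (a gap of 0.23), and their ranges did not overlap there. The other 5 neighbouring pairs overlapped.

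For IAGLU the same ordering began with mpk11 with flg22 at 3 h (4.002 ± 0.16) and wild type with flg22 at 3 h (3.97 ± 0.08), and a gap of 0.71 followed. Next came wild type and mpk11 with mock at 30 min (3.26 ± 0.30 and 3.09 ± 0.07), wild type with flg22 at 30 min (3.03 ± 0.17), mpk11 and wild type with mock at 3 h (2.86 ± 0.06 and 2.85 ± 0.07) and mpk11 with flg22 at 30 min (2.68 ± 0.16). The gaps above mpk11 mock at 3 h (0.18) and above mpk11 with flg22 at 30 min (0.17) also exceeded the larger SD, although the ranges of the last 2 groups overlapped. The lowest group was thus a mock group for UGT76B1 and a flg22 group for IAGLU, as it also was under the 3 other scalings.

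The middle of both orders turned on the scaling, while the flg22 groups of 3 h came first under all 4. Less the array medians, every group mean was negative, from -0.13 to -0.70 for UGT76B1 and from -0.075 to -1.42 for IAGLU. After median centring both flg22 groups of 30 min stood below both mock groups of 30 min for either gene, at places 6 and 7 for UGT76B1 and at places 8 and 7 for IAGLU (mpk11, then wild type), and quantile normalization gave them the same places. The gap below the flg22 groups of 3 h shrank to 0.12 for UGT76B1 and 0.33 for IAGLU after median centring, and to 0.094 and 0.35 after quantile normalization, with overlapping ranges in each case. With centring on reference genes, which were chosen after seeing the data, these gaps were 0.42 and 0.74, without overlap.

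The genotypes were compared directly, and neither gene passed in any condition. The smallest unadjusted p belonged to IAGLU with flg22 at 30 min, where the 3 mpk11 arrays (2.86, 2.62 and 2.56) lay below the 3 wild-type arrays (3.23, 2.92 and 2.96) by 0.35 on average (a difference of -0.35, SE 0.14, 95% interval -0.64 to -0.06, limma unadjusted p = 0.0190, adjusted p = 0.912). In this comparison 0% of the 576 probes passed in limma and 24 had an unadjusted p under 0.05. With mock at 30 min IAGLU differed by -0.17 (95% interval -0.46 to 0.12), with flg22 at 3 h by 0.03 (-0.26 to 0.32) and with mock at 3 h by 0.004 (-0.29 to 0.29).

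For UGT76B1 the genotype difference was 0.02 with flg22 at 30 min (95% interval -0.32 to 0.36), -0.17 with mock at 30 min (-0.51 to 0.17), 0.08 with flg22 at 3 h (-0.26 to 0.42) and 0.23 with mock at 3 h (-0.11 to 0.57). In the last of these the lowest mpk11 array (2.99) lay above the highest wild-type array (2.87), and the gene ranked 24 of 576 from the highest, without passing (limma unadjusted p = 0.167, adjusted p = 0.987). No probe was called there either (0% of 576 in limma), with 6 at an unadjusted p under 0.05. Over all conditions mpk11 less wild type was 0.04 for UGT76B1 (95% interval -0.13 to 0.21) and -0.12 for IAGLU (-0.27 to 0.02). The intervals do not show that the genotypes are alike.

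The flg22 responses themselves were compared between the genotypes by their interaction. For UGT76B1 the response in mpk11 less that in wild type was 0.19 at 30 min (95% interval -0.29 to 0.67) and -0.16 at 3 h (-0.64 to 0.32). For IAGLU it was -0.18 at 30 min (-0.59 to 0.23) and 0.03 at 3 h (-0.38 to 0.44), so that its call at 30 min in mpk11 and not in wild type is no shown difference between them. None of the 4 passed (limma adjusted p from 0.995 to 0.999), and 0% of probes passed at 30 min or 3 h in limma, where 7 and 8 probes had an unadjusted p below 0.05.

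**Figure D3:**
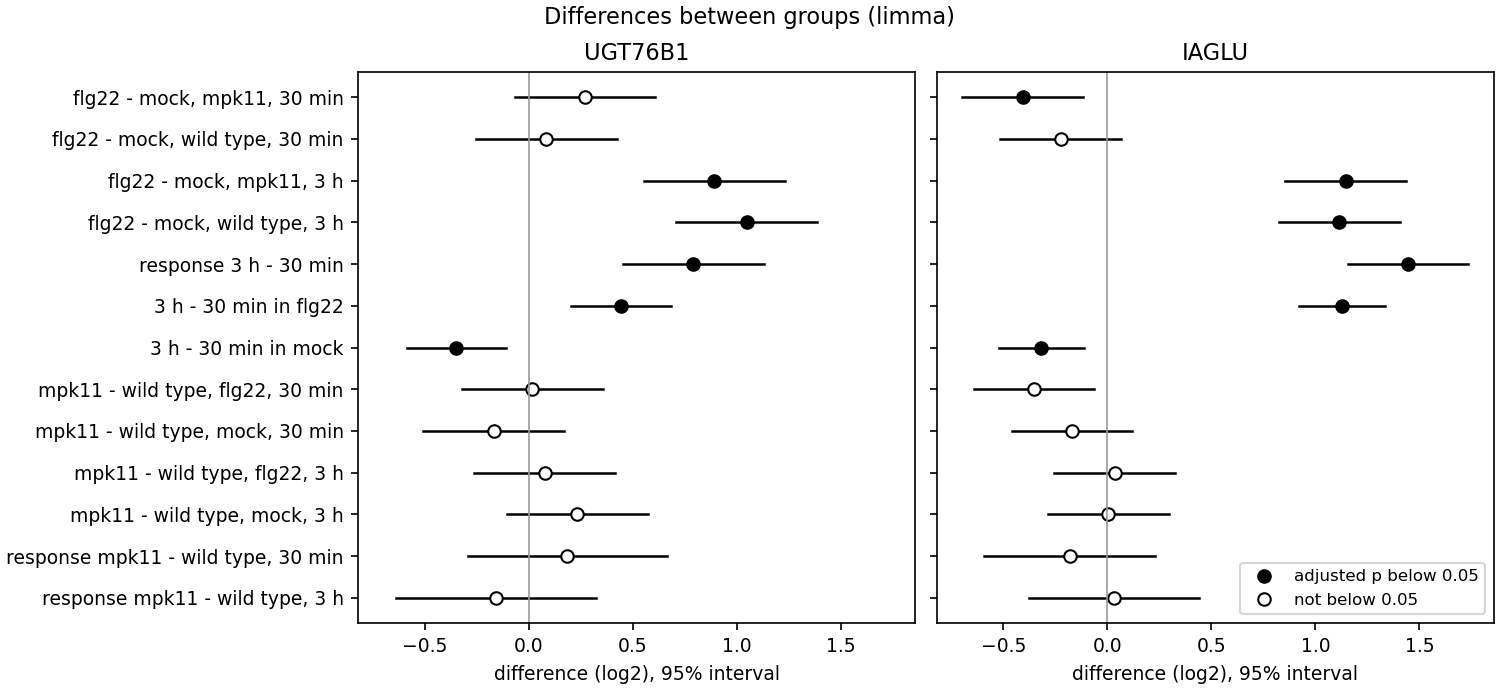
Log2 differences with 95% intervals from the limma model for UGT76B1 (left) and IAGLU (right), with filled points for an adjusted p below 0.05. The filled points are the 3 h responses, the changes between the times and the 30 min response of IAGLU in mpk11 (-0.41), and every genotype difference is open.

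The array held 6 named UDP-glycosyltransferase genes by annotation, UGT76B1 and IAGLU among them. Beside them were UGT74B1, which glucosylates thiohydroximates in glucosinolate synthesis, UGT84A3, which acts on hydroxycinnamic acids, UGT85A2 and UGT76E12. Over both genotypes at 3 h, 3 of the 6 rose with flg22 and 0 fell (median 0.58, against 0.17 for all probes), and at 30 min 0 rose and 1, IAGLU, fell (median -0.18, against 0.06 for all probes). Of all probes 39.2% rose and 10.4% fell at 3 h, and 23.3% rose and 3.47% fell at 30 min. The rises at 3 h were 3 of 6 under every scaling, but the falls were not stable: median centring gave 2 at 3 h (UGT85A2 and UGT84A3) and 5 at 30 min (all but UGT76E12), with list medians of 0.0014 and -0.66 against -0.41 and -0.43 for all probes. Quantile normalization gave 2 falls at 3 h and 4 at 30 min. Of the 576 probes, 133 rose and 326 fell at 3 h after median centring, and 96 rose and 373 fell at 30 min. After quantile normalization 143 rose and 245 fell at 3 h, and 102 rose and 260 fell at 30 min.

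UGT74B1 was the other member that rose, averaging 5.63 with flg22 and 4.07 with mock at 3 h over both genotypes, a rise of 1.57 (SE 0.13; limma adjusted p = 2.34e-10). At 30 min it differed by -0.24 (95% interval -0.50 to 0.02; limma adjusted p = 0.212), so its response changed with time by 1.80 (SE 0.18; limma adjusted p = 1.90e-08). The rise of UGT74B1 at 3 h was 0.99 after median centring and 0.86 after quantile normalization, passing in both. Its 30 min difference became -0.72 (limma adjusted p = 4.70e-05) and -0.74 (limma adjusted p = 5.23e-05), which passed, beside medians over all probes of -0.43 and -0.28. The remaining genes had responses at 3 h of 0.18 for UGT76E12 (95% interval -0.27 to 0.64), 0.14 for UGT85A2 (-0.20 to 0.49) and 0.13 for UGT84A3 (-0.21 to 0.47), none passing. After median centring these values were -0.39 (UGT76E12, not passing), -0.43 (UGT85A2) and -0.45 (UGT84A3), both of the last passing (limma adjusted p = 0.0252 and 0.00784). The median over all probes was -0.41 there. UGT85A2 nevertheless rose between the times in flg22, by 0.70 (SE 0.17; limma adjusted p = 0.00108), and differed by 0.21 in mock without passing (limma adjusted p = 0.465). Its response at 3 h less that at 30 min was 0.49 and did not pass (limma adjusted p = 0.115). The 30 min response of UGT85A2 was -0.34 and did not pass (95% interval -0.69 to 0.005), and it was -0.83 after median centring (limma adjusted p = 2.74e-04). UGT84A3 lies near IAGLU on chromosome 4, with 7 annotated genes between them in RefSeq's TAIR10.1 annotation, and the 2 responses at 3 h were 0.13 and 1.13.

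**Figure D4:**
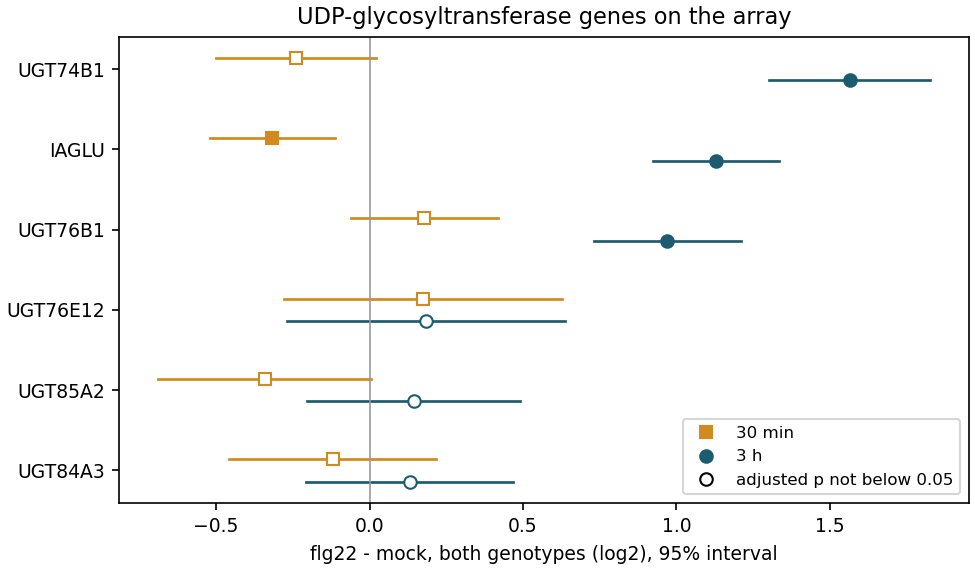
Pooled flg22 minus mock difference (log2, both genotypes) with its 95% interval for the 6 named UDP-glycosyltransferase genes, at 30 min (squares) and 3 h (circles), filled where the adjusted p is below 0.05. UGT74B1, IAGLU and UGT76B1 stand between 0.97 and 1.57 at 3 h (between 0.39 and 0.99 after median centring), and the other genes between 0.13 and 0.18 (between -0.45 and -0.39 after median centring).

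Of genes tied to the same hormones, few were among the named probes. From a list of 20 genes of salicylic acid and N-hydroxypipecolic acid the array named 1, GRX480, a glutaredoxin gene induced by salicylic acid. GRX480 was higher with flg22 at 30 min by 0.64 (SE 0.10; limma adjusted p = 7.75e-06) and differed by 0.09 at 3 h (limma adjusted p = 0.458), so that its response at 3 h less that at 30 min was -0.55 (limma adjusted p = 0.00242). After median centring the 30 min value was 0.16 and no longer passed (limma adjusted p = 0.134), the 3 h value was -0.48 and passed (limma adjusted p = 1.26e-04), and the difference between them was -0.64. After quantile normalization GRX480 was at 0.36 (passing) and -0.15 (not passing). From 11 genes of the tryptophan and indole pathway, from which auxin precursors also come, the array named 1, AT2G04400, with a difference of 0.03 at 30 min (limma adjusted p = 0.924) and a rise of 2.92 at 3 h (SE 0.11; limma adjusted p = 4.99e-16). Median centring made these -0.46 (limma adjusted p = 0.00302) and 2.34, and quantile normalization -0.39 (limma adjusted p = 0.0129) and 2.34. For both genes these values stand beside medians over all probes of -0.43 at 30 min and -0.41 at 3 h after median centring. After quantile normalization those medians were -0.28 and -0.21. Probes called lower at 30 min and 3 h numbered 373 and 326 after median centring, and 260 and 245 after quantile normalization. None of 24 listed genes of auxin metabolism, transport and response was named.

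Likeness of pattern was described by Pearson's r over the 8 group means, among the 180 other named genes, and carries no test. The genes most like UGT76B1 were BIP1 (r = 0.97), which encodes a chaperone of the endoplasmic reticulum, AT3G51370 (0.96), AT2G38870 (0.93), AT2G42360 (0.92) and AT4G01700 (0.92). BIP1 had pooled responses of 0.01 at 30 min and 1.74 at 3 h, and it was again the most like of all after median centring (r = 0.95), whereas AT2G42360 went to rank 34. Least like were AT3G18050 (-0.95), RAP (-0.91) and AT3G16370 (-0.88), and after median centring their r was -0.44, -0.48 and -0.50, at ranks 151, 156 and 159 of 180.

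The genes most like IAGLU were AT3G13950 (r = 0.97), AT3G51330 (0.96), UGT74B1 (0.96), AT2G39980 (0.95) and AT5G23340 (0.95). The size of the swing does not enter r, and AT5G23340 differed by 0.37 at 3 h while UGT74B1 rose by 1.57. After median centring AT3G51330, AT2G39980, AT3G13950 and UGT74B1 were the 4 most like, and AT5G23340 went to rank 24. The least like, AT1G09200 (-0.98), RAP (-0.93) and COR47 (-0.89), had r of -0.39, -0.27 and -0.28 after median centring, at ranks 150, 143 and 144 of 180. Between UGT76B1 and IAGLU themselves r was 0.81 over the groups and 0.74 over the 24 arrays, which share scaling and treatment, and this placed IAGLU at rank 36 for UGT76B1 and UGT76B1 at rank 28 for IAGLU. After median centring r over the groups was 0.86, with IAGLU at rank 2 for UGT76B1 and UGT76B1 at rank 10 for IAGLU.

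**Figure D5:**
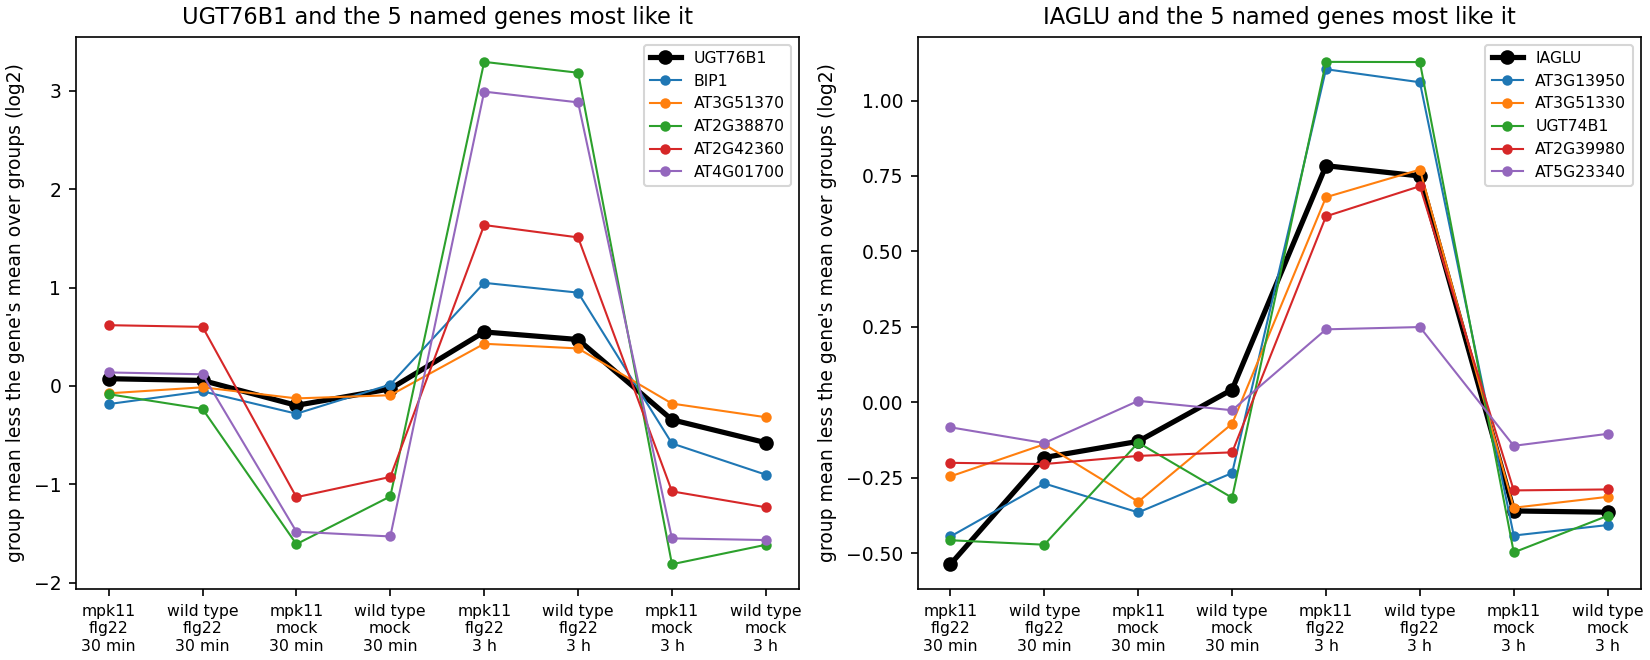
Group means less the mean of the gene over the 8 groups (log2) for UGT76B1 (left) and IAGLU (right), drawn in black, with the 5 named genes of highest Pearson r. All curves peak in the flg22 groups of 3 h, which is no separate result because the genes were picked by r over these same means. The swing of AT2G38870 and AT4G01700 is wider than that of UGT76B1, with pooled responses at 3 h of 4.95 and 4.50 against 0.97.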

How the data were processed

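Transcripts were measured on 24 spotted arrays with a single dye (Alexa555). A Cy5-labelled oligonucleotide bound at every spot lets poor spots be recognised and dropped, per the labels, and whether any were is not given. The deposited log2 values ranged from 0.45 to 11.4 with 0 missing. Their log base (taken as log2), scanner, background correction and normalization have no statement in the labels or headers, and a value often recurs within an array (311 to 405 distinct values), for which no cause is given. For example, IAGLU and UGT85A2 have the same value (2.96) on the set 3 array of wild type with flg22 at 30 min. The probe table (old platform annotation) assigned 181 probes to 1 gene, 0 to several and left 395 without a name here. RefSeq (TAIR10.1) names matched 180. No genome coordinates or sequences are printed.

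Groups came from the labels. Nothing says that sets are separate cultures, so p-values measure the spread between samples, which may be technical. No 2 arrays shared more than 2 probe values. limma 3.58.1 (R 4.3.3) fitted 8 group means over all arrays without a filter, with the comparisons of the report. The fit and the exact permutation test (numpy 2.4.6) were tested on simulated data. The members, lists and comparisons were chosen with earlier results of these data known. Similar genes were named by the 5 highest and 3 lowest Pearson correlations over group means. Deviations of same-numbered arrays correlated above 0.1 in every pair in 7 of 8 comparisons of 2 groups (lowest -0.01, highest 0.71), so there the sets pair the samples. The exception was mpk11 against wild type with flg22 at 3 h. Alternatives were 3 other scalings, a filter on the dimmest 25% of probes (432 kept, both genes among them), another prior, the replicate block, the compared groups only, and omission of each array or set. The number of arrays limits the precision.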

Additional observations from a re-analysis of the deposited data

Results flagged for a closer look

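The flg22 response differed between the times for both genes by a test of the difference itself. For UGT76B1 the response at 3 h less that at 30 min was 0.79 (limma adjusted p = 3.87e-04), with all 6 same-set pairs higher with flg22 at both times in the deposited values. Its pooled 30 min response did not pass (0.18, limma adjusted p = 0.363). That response was -0.31 after median centring, -0.23 after quantile normalization and 0.20 after centring on reference genes. For IAGLU the response at 3 h less that at 30 min was 1.45 (limma adjusted p = 1.34e-08), with 6 of 6 pairs higher at 3 h and 5 of 6 lower at 30 min. In mpk11 every set of IAGLU went the opposite way at the 2 times, so that the 30 min response less the 3 h response was -1.55 there, a difference not tested for mpk11 alone. For UGT76B1 in mock, mpk11 lay below wild type in every set at 30 min and above it in every set at 3 h. The genotype difference at 30 min less that at 3 h was -0.40, which was not tested, and neither genotype difference passed on its own.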

How the results depend on the processing

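Of 718 recomputed values for 34 results, 629 kept their direction and side of the threshold, 53 kept the direction and no longer passed, 4 kept the direction and newly passed, and 32 turned in sign, whether or not they passed. The cause of each change was not tested. Median centring gave UGT76B1 responses at 30 min of -0.39 in wild type, -0.23 in mpk11 and -0.31 pooled, an IAGLU response in wild type of -0.70 that passed, a UGT76B1 response in mpk11 at 3 h of 0.27, an IAGLU interaction at 3 h of -0.064, and changes in mock of -0.20 (UGT76B1) and -0.17 (IAGLU). Quantile normalization gave the same series as -0.30, -0.17, -0.23, -0.48, 0.23, -0.029, -0.25 and -0.24. With the compared groups only, IAGLU at 30 min in mpk11 (-0.41) and pooled (-0.32) and the mock changes (-0.35 for UGT76B1, -0.32 for IAGLU) no longer passed. Centring on 12 reference genes, chosen after seeing the data, gave -0.40 for IAGLU in mpk11 at 30 min, -0.33 for the UGT76B1 mock change (neither passing) and -0.044 for UGT76B1 between genotypes with flg22 at 30 min. Omitting arrays or sets, UGT76B1 ranged from -0.078 to 0.21 (wild-type response, 30 min), -0.11 to 0.12 (genotypes, flg22 at 30 min), -0.011 to 0.22 (genotypes, flg22 at 3 h), -0.00082 to 0.076 (genotypes pooled), -0.50 to -0.25 (mock change) and 0.32 to 0.59 (flg22 change). IAGLU ranged from -0.47 to -0.021 (wild-type response, 30 min), -0.54 to -0.31 (mpk11), -0.50 to -0.20 (pooled), -0.037 to 0.078 (genotypes, mock at 3 h), -0.052 to 0.17 (genotypes, flg22 at 3 h), -0.10 to 0.21 (interaction, 3 h) and -0.42 to -0.23 (mock change). The UGT76B1 less IAGLU response ranged from 0.36 to 0.70 at 30 min and from -0.21 to -0.091 at 3 h. It was 0.37 at 30 min after quantile normalization and lost its call. Without a whole set its smallest possible p is 0.0556.

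With the set as a replicate block, the pairing changed no limma call of UGT76B1 or IAGLU, nor a pooled response or flg22 time call of the other listed genes (IAGLU pooled at 30 min -0.32, limma adjusted p = 0.0160), while the exact sign-flip test of the 30 min difference between the genes (0.49) no longer passed and, with the 3 h p beside it, could not have. Over all probes a fixed block gave 149 calls against 118 for the mock change, and a random block 2 against 0 for pooled genotypes. The planned centring on housekeeping genes was not run, because its pattern matched 1 named gene. Limits are 3 arrays a group, an unstated log base and normalization, and array medians that move with flg22.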
